A study of Mus musculus with 8 samples.

Results

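The genes described here are the 4 Notch receptors (Notch1, Notch2, Notch3 and Notch4), 4 of their ligands (Jag1, Jag2, Dll1 and Dll4) and 2 target genes (Hes1 and Hey1). They were taken by gene symbol from the deposited table, which holds 22322 genes, and each of the 10 symbols matched 1 row. The series compares RNA sequencing of 4 mouse kidney samples infected with an adenovirus for Cre recombinase (Ad-Cre, genotype given as suv39h1 knockdown) with 4 infected with an adenovirus for GFP (Ad-GFP, genotype given as WT). Every sample, in both groups, is labelled as primary renal fibroblasts and received TGF-β at 5 ng/ml for 48 h, so the comparison holds no unstimulated sample. The labels and files read here give no strain, age or floxed allele. They also do not say whether the replicates were independent cultures, and a p-value then covers only how far these libraries scatter, which could be technical scatter.

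Notch receptors are single-pass membrane proteins that are activated by contact with a neighbouring cell. When a Jagged or Delta-like ligand on that cell binds, metalloproteases and then γ-secretase cut the receptor, and the freed intracellular domain enters the nucleus, binds the DNA-binding protein RBPJ with Mastermind-like co-activators, and switches on HES and HEY genes, which encode transcriptional repressors. In the kidney the pathway patterns the nephron during development and is known to be re-expressed in injured tubules and in fibrosis, while in blood vessels Notch1, Notch4, Dll4 and Jag1 act in endothelial cells and Notch3 in mural cells.

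The Ad-Cre libraries held 18006938 to 23940043 counts and the Ad-GFP libraries 15879244 to 17930632, so every Ad-Cre library was the deeper. Levels between samples are given in CPM, the normalised read count on library totals scaled by TMM. Suv39h1 was at 25.3, 22.8, 21.6 and 22.6 CPM in Ad-Cre, against 29.0, 27.8, 29.3 and 29.6 CPM in Ad-GFP, which is 79.6% of the Ad-GFP level by the fit. The labelled cell type was only partly borne out by its markers. Of 10 fibroblast markers 7 had enough counts to be tested, Lum, Fbln1 and Gli1 did not, and Vim and Col1a1 were the most abundant at 167.0 ± 7.7 and 131.4 ± 10.0 CPM in Ad-Cre and 251.9 ± 5.7 and 206.6 ± 11.1 CPM in Ad-GFP (SD, n = 4). Krt8 and Cldn4, the most abundant of 10 epithelial markers, stood at 1168 ± 18 and 1099 ± 27 CPM in Ad-Cre and 1504 ± 37 and 1141 ± 29 CPM in Ad-GFP (SD, n = 4).

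Of the 10 Notch genes 1 rose (Dll1) and 4 fell (Notch1, Notch4, Jag1 and Jag2) in Ad-Cre, and the other 5 did not pass the test. The test is edgeR's quasi-likelihood test with Benjamini-Hochberg adjustment over 13337 genes at a threshold of 0.05, and all 10 genes had enough counts to enter it. Over all genes tested, 40.3% passed, 19.8% as higher and 20.5% as lower (2641 and 2729 genes, against 2164 and 3089 with upper-quartile scaling), so a share of 5 in 10 lies near the background and is not a result about these genes as a group. The median log2 fold change (Ad-Cre over Ad-GFP) was -0.15 over the 10 genes and 0.0041 over all genes tested. In 5 of the 10 genes the CPM of the groups did not overlap, against 35.4% of all genes tested. The authors' deposited table has the same 5 genes at an FDR under 0.05, beside 18.7% of all its 22322 genes. That share also counts genes too low to enter the test here, so it is not on the same footing as the 40.3%. In the authors' deposited table the log2 ratio of mean FPKM is 0.26 for Dll1, -0.80 for Notch4, -0.13 for Jag1, -0.90 for Jag2 and -0.21 for Notch1.

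**Figure D1:**
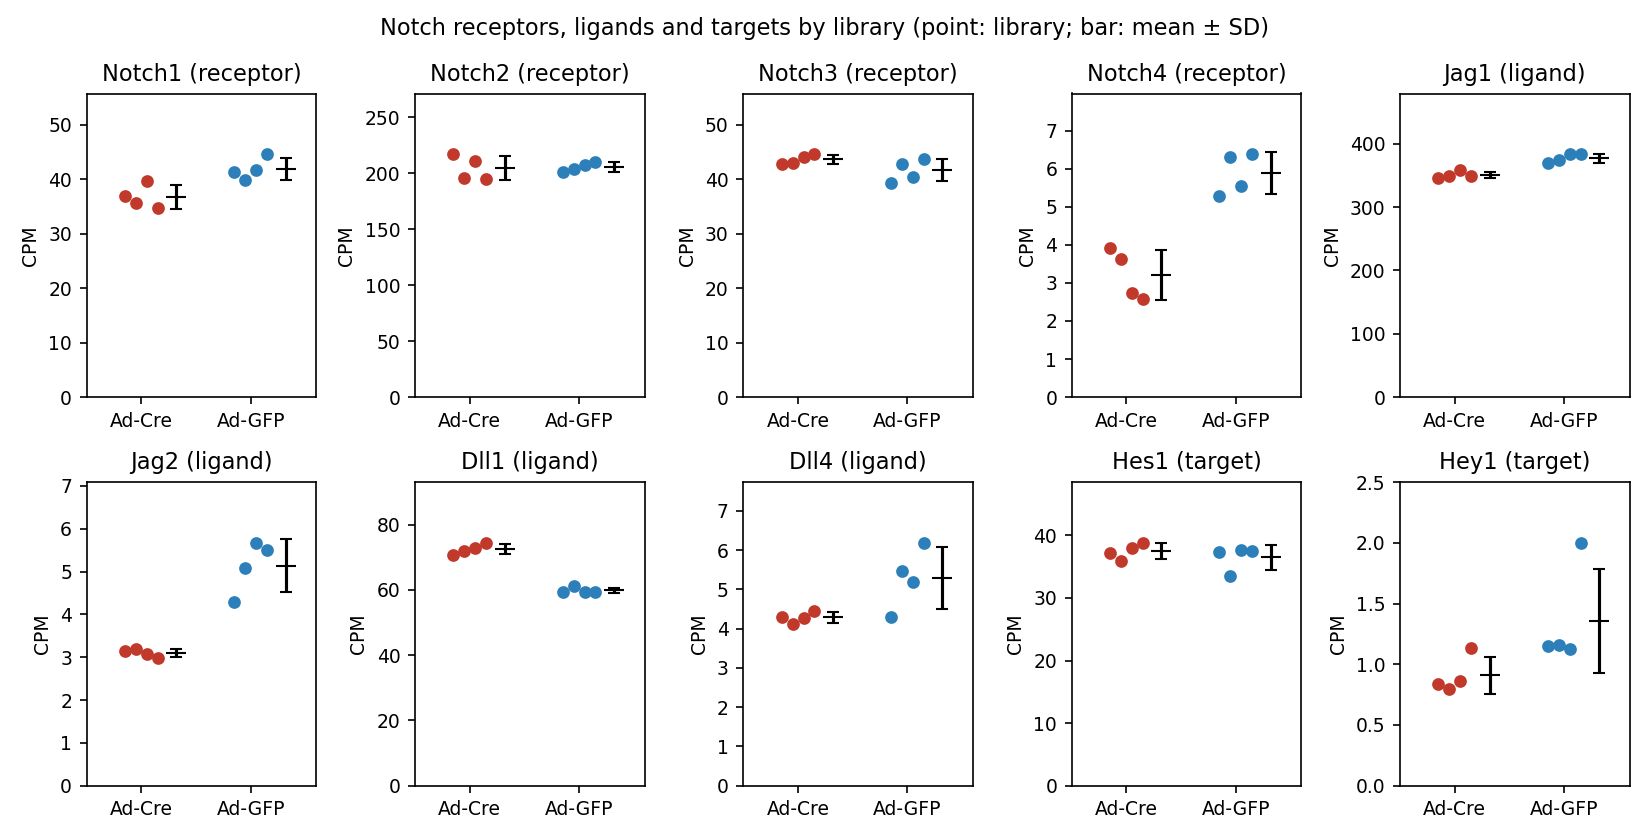
CPM of each Notch gene in every library, with Ad-Cre (red) left of Ad-GFP (blue); points are libraries, and the black bars give the mean ± SD of 4 libraries. Notch4, Jag2, Jag1 and Notch1 lie lower and Dll1 lies higher in every Ad-Cre library than in any Ad-GFP library, while the groups overlap for the other 5 genes.

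Per unit of transcript length, for which the deposited FPKM values are used, Jag1 was the most abundant of the 10 genes in both groups, at 61.99 ± 0.86 FPKM in Ad-Cre and 67.7 ± 1.3 FPKM in Ad-GFP (SD, n = 4). Hes1 came next at 25.35 FPKM in Ad-Cre and 25.02 FPKM in Ad-GFP, and in neither group did the libraries of Jag1 and Hes1 overlap. Dll1 and Notch2 held the following places: Dll1 averaged 20.1 and Notch2 19.4 FPKM in Ad-Cre with overlapping libraries, whereas in Ad-GFP Dll1 averaged 16.8 and Notch2 19.7 FPKM without overlap. Notch3 and Notch1 formed a middle tier, at 5.57 and 3.84 FPKM in Ad-Cre and 5.23 and 4.44 FPKM in Ad-GFP. Dll4, Jag2, Notch4 and Hey1 were the lowest in both groups, at 1.14, 0.618, 0.57 and 0.37 FPKM in Ad-Cre and 1.42, 1.15, 0.995 and 0.565 FPKM in Ad-GFP. Neighbours in that order overlapped for Jag2 with Notch4 and for Notch4 with Hey1 in Ad-Cre, and for Dll4 with Jag2 and Jag2 with Notch4 in Ad-GFP.

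Among the receptors, Notch2, which is needed for proximal nephron formation in the mouse, was the main transcript and stayed near its Ad-GFP level. The gene (ENSMUSG00000027878) lies on chromosome 3 at 98013527 to 98150361 on the plus strand (GRCm38, GENCODE M21, as for the positions that follow). It was at 217.1, 196.3, 210.9 and 194.8 CPM in Ad-Cre and at 200.8, 203.5, 207.6 and 210.3 CPM in Ad-GFP, so the groups overlapped. Its fitted level in Ad-Cre was 99.5% of Ad-GFP, with a 95% interval of 95.3% to 103.9% (adjusted p = 0.875). Notch3, the receptor of pericytes and smooth muscle cells (ENSMUSG00000038146, chromosome 17, 32120820 to 32166852, minus strand), was at 42.9, 43.0, 44.1 and 44.6 CPM in Ad-Cre and at 39.4, 42.9, 40.5 and 43.8 CPM in Ad-GFP. The groups overlapped here as well, and the fitted level was 104.9% of Ad-GFP (95% interval 98.5% to 111.7%, adjusted p = 0.224).

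Notch1, the founding mammalian receptor of the family (ENSMUSG00000026923, chromosome 2, 26457903 to 26516663, minus strand), fell by a small amount. Its CPM values were 36.9, 35.7, 39.8 and 34.7 in Ad-Cre and 41.2, 39.8, 41.7 and 44.6 in Ad-GFP, and the highest Ad-Cre library lay just under the lowest Ad-GFP library. The log2 fold change was -0.19 ± 0.050 (SE, n = 4 per group), or 87.9% of Ad-GFP, with an adjusted p = 0.00405. That call is lost with limma on log2(FPKM + 1) when no filter is applied (adjusted p = 0.0763), and is kept on the same scale with a mean FPKM of at least 1 (adjusted p = 0.0483).

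Notch4, the receptor found chiefly in endothelial cells (ENSMUSG00000015468, chromosome 17, 34564268 to 34588503, plus strand), fell at a low level. In the count fit its change was the largest of the 10 genes, while Jag2 fell further in the authors' deposited table. It was at 3.92, 3.62, 2.74 and 2.58 CPM in Ad-Cre and at 5.28, 6.3, 5.56 and 6.38 CPM in Ad-GFP. These values rest on 70, 86, 57 and 57 counts in Ad-Cre and 92, 114, 94 and 102 counts in Ad-GFP, and the groups stayed apart. The log2 fold change was -0.88 ± 0.14 (SE, n = 4 per group), 54.5% of Ad-GFP with a 95% interval of 44.5% to 66.7% (adjusted p = 1.902e-05). On log2(FPKM + 1) with no filter, a scale that understates the change of low genes, the log2 fold change was -0.35 for Notch4 and -0.41 for Jag2, and both passed. The ratio of CPM to FPKM, which should be constant for a gene of fixed length, ran between 4.82 and 6.64 across the 8 libraries for Notch4 (coefficient of variation 14.4%) and between 4.04 and 5.16 for Jag2 (10.1%), against at most 2.41% for the other 8 genes. Levels per length of Notch4 and Jag2 are less sure for that reason.

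**Figure D2:**
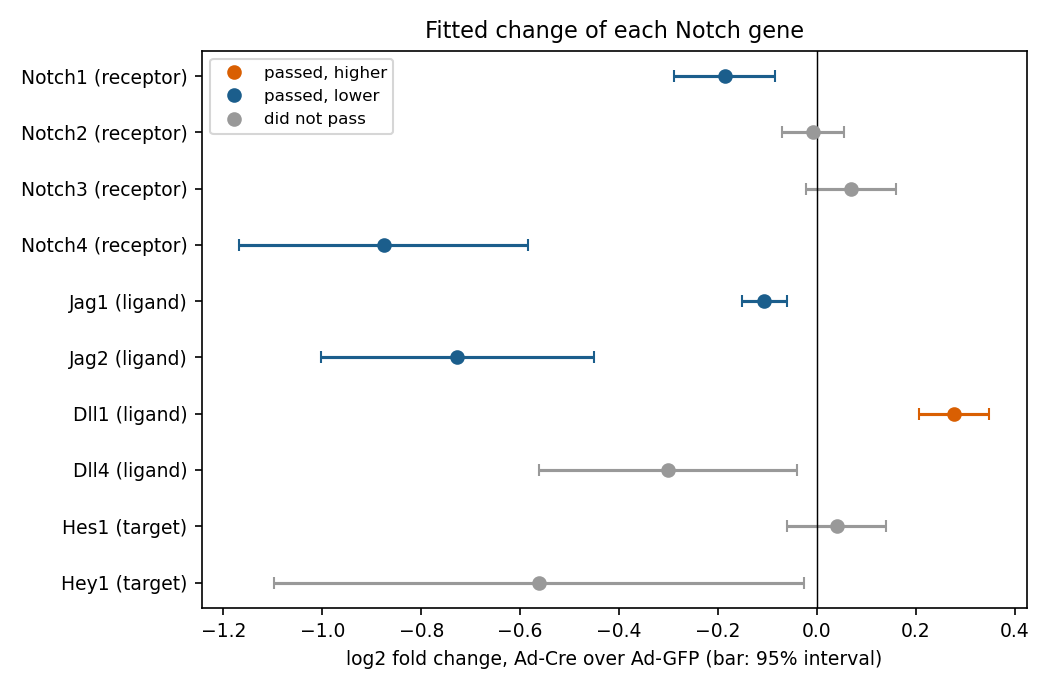
Fitted log2 fold change of each Notch gene, Ad-Cre over Ad-GFP, with its 95% interval; colours show which genes passed the test at 0.05 after adjustment. Dll1 is the only one of the 10 that passed as higher (0.28), and Notch4 (-0.88) and Jag2 (-0.73) lie farthest to the lower side.

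Notch2 made up 65.9 ± 1.0% of the summed FPKM of the 4 receptors in Ad-Cre and 64.9 ± 0.6% in Ad-GFP (SD, n = 4). Notch1 supplied 13.1 ± 0.5% in Ad-Cre and 14.6 ± 0.5% in Ad-GFP, Notch3 19.0 ± 1.3% in Ad-Cre and 17.2 ± 0.6% in Ad-GFP, and Notch4 1.94 ± 0.52% in Ad-Cre and 3.28 ± 0.40% in Ad-GFP. The shares of Notch1, Notch3 and Notch4 did not overlap between the groups. The FPKM of Notch3 itself did overlap, at 5.33 to 5.92 in Ad-Cre and 4.94 to 5.5 in Ad-GFP. Shares of the same sum move together, so these are not separate results. No background over all genes was computed for shares, and the Notch4 share rests on its less sure FPKM. These shares are given as a description, without a test. The summed receptor FPKM was 29.3 ± 1.1 in Ad-Cre and 30.38 ± 0.74 in Ad-GFP.

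Of the 4 ligands 1 rose, 2 fell and 1 did not pass. Dll1, a Delta-like ligand that activates Notch on adjacent cells, was the only 1 of the 10 genes to rise. It was at 70.8, 72.1, 72.9 and 74.5 CPM in Ad-Cre and at 59.5, 61.1, 59.4 and 59.5 CPM in Ad-GFP, so every Ad-Cre library lay above every Ad-GFP library. The log2 fold change was 0.28 ± 0.034 (SE, n = 4 per group), 121.2% of Ad-GFP with a 95% interval of 115.4% to 127.3% (adjusted p = 3.427e-07). The gene (ENSMUSG00000014773) lies on the minus strand of chromosome 17 at 15367354 to 15376872, and its exons overlap those of a non-coding gene on the opposite strand, A930024N18Rik, over 867 bases or 20.6% of its exonic sequence. No source read here states a strand setting for the counting, so reads of the pair cannot be told apart. Exons of Notch1, Notch3 and Dll4 overlap genes of the opposite strand too, Notch1 with 0610009E02Rik over 1068 bases and Gm13568 over 414, and Notch2 shares 541 bases with Gm42820 on its own strand.

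Jag1, the Jagged ligand most often linked to renal fibrosis (ENSMUSG00000027276, chromosome 2, 137081456 to 137116644, minus strand), fell by a small amount from a high level. It was at 346.1, 348.7, 357.9 and 349.7 CPM in Ad-Cre and at 369.1, 373.9, 383.1 and 383.4 CPM in Ad-GFP, with no overlap. That is 92.9% of Ad-GFP, with a 95% interval of 90.1% to 95.9% (adjusted p = 0.000375). Jag2, the other Jagged ligand (ENSMUSG00000002799, chromosome 12, 112907819 to 112929776, minus strand), fell further from a low level. It was at 3.13, 3.2, 3.08 and 2.99 CPM in Ad-Cre and at 4.3, 5.09, 5.67 and 5.5 CPM in Ad-GFP, on 56 to 76 counts per library in Ad-Cre and 75 to 96 in Ad-GFP. The Ad-Cre libraries lay close together below the lowest Ad-GFP library, and the fitted level was 60.4% of Ad-GFP (95% interval 49.9% to 73.2%, adjusted p = 0.000101).

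Dll4, the Delta-like ligand of endothelial tip cells (ENSMUSG00000027314, chromosome 2, 119325784 to 119335962, plus strand), did not pass. It was at 4.31, 4.12, 4.28 and 4.44 CPM in Ad-Cre and at 4.3, 5.48, 5.2 and 6.19 CPM in Ad-GFP, and the lowest Ad-GFP library lay within the Ad-Cre range. The log2 fold change was -0.30 ± 0.13 (SE, n = 4 per group; adjusted p = 0.0607). Without Ad-GFP replicate 1, that low library, the adjusted p was 0.0194 with a log2 fold change of -0.39, and with upper-quartile scaling it was 0.0466. The other 16 of 18 alternatives left Dll4 unpassed, among them DESeq2 (adjusted p = 0.116), thinned libraries (0.155) and the fit without Ad-GFP replicate 4 (-0.22, adjusted p = 0.208).

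**Figure D3:**
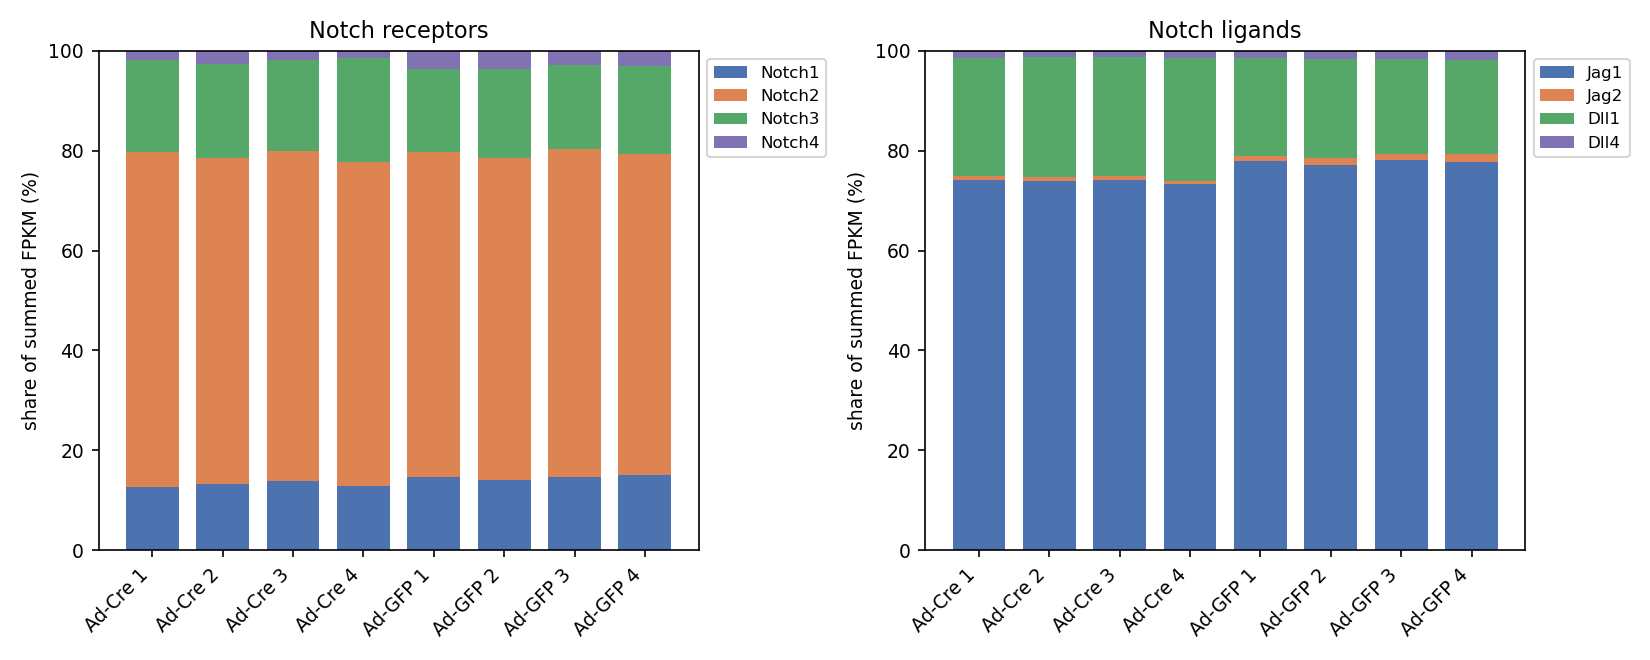
Share of each gene in the summed FPKM of the 4 receptors (left) and of the 4 ligands (right), 1 bar per library, Ad-Cre left of Ad-GFP. Notch2 fills 64.3% to 67.2% of the receptor sum in every library, and Dll1 takes 23.7% to 24.6% of the ligand sum in Ad-Cre libraries and 18.9% to 19.8% in Ad-GFP libraries.

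Dll1 made up 24.0 ± 0.4% of the summed ligand FPKM in Ad-Cre and 19.3 ± 0.5% in Ad-GFP, and Jag1 73.9 ± 0.4% in Ad-Cre and 77.7 ± 0.4% in Ad-GFP (SD, n = 4). Neither share overlapped between the groups, but shares of the same sum move together. Jag2 supplied 0.736 ± 0.036% in Ad-Cre and 1.32 ± 0.22% in Ad-GFP, without overlap, and Dll4 1.35 ± 0.04% in Ad-Cre and 1.63 ± 0.22% in Ad-GFP, with overlap. The summed ligand FPKM was 83.9 ± 1.1 in Ad-Cre and 87.1 ± 1.6 in Ad-GFP. These shares follow from the same libraries as the fit and carry no test of their own.

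The sequences upstream of the called genes are shown here because RBPJ and the HES and HEY repressors bind short DNA motifs near gene starts. RefSeq start sites on GRCm38.p6 were listed for 8 of the 10 genes in 9 windows, and Hes1 and Hey1 had no entry. Each line runs 5′ to 3′ on the gene's strand from 250 bases before the start, and stops where an annotated exon of the gene begins, which left no base for Jag2. Capitals mark the class C E-box CACGCG or the N-box CACNAG on either strand, which HES and HEY proteins are known to bind.
Dll1, upstream start (chr17:15376933-15377182, minus strand): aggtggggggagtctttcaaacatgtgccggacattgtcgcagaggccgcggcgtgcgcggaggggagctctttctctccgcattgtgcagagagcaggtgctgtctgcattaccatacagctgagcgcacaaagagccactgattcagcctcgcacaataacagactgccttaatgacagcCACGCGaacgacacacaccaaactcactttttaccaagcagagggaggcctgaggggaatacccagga
Dll1, downstream start (chr17:15375977-15376073, minus strand): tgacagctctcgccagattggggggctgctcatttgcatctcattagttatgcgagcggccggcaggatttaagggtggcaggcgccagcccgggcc
Notch4 (chr17:34564045-34564267, plus strand): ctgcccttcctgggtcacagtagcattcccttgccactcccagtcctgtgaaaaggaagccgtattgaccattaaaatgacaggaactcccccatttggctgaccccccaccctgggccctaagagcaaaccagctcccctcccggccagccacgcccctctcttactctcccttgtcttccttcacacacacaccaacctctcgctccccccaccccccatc
Notch1 (chr2:26503825-26504072, minus strand): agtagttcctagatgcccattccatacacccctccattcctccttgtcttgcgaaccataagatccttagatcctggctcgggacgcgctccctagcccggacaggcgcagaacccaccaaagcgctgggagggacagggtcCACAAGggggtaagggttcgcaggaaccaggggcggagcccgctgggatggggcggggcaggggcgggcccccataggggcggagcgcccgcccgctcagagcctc
Jag1 (chr2:137116645-137116770, minus strand): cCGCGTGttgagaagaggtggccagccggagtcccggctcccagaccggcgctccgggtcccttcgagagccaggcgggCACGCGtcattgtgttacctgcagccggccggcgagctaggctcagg

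The RBPJ motif searched, GTGGGAA on either strand, was in 0 of the 9 windows of 250 bases and in 5.42% of the 32851 RefSeq windows of the same length. The class C E-box CACGCG was in 4 of the 9 windows (the upstream Dll1 start, Jag1, Dll4 and Notch2), against 7.62% of all windows. It began 68 bases before the upstream Dll1 start and 171 and 249 bases before the Jag1 start. The N-box CACNAG was in 4 of the 9 (Notch1, Notch2, Notch3 and Dll4), against 36.7% of all windows. The canonical E-box CACGTG was in 0 of the 9, against 6.02%. The Notch4 window held none of these 4 motifs. GC content was 56.0% at the upstream Dll1 start, 58.4% at Notch4 and 87.2% at Jag2, beside a median of 52.4% over all windows. These matches are a description of letters in a window, and binding was not measured.

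The target genes gave no passed test. Hes1, which encodes the repressor most widely induced by Notch (ENSMUSG00000022528, chromosome 16, 30064384 to 30067796, plus strand), was at 37.2, 36.0, 38.02 and 38.8 CPM in Ad-Cre and at 37.3, 33.5, 37.7 and 37.5 CPM in Ad-GFP. The groups overlapped, and the fitted level was 102.8% of Ad-GFP, with a 95% interval of 96.0% to 110.2% (adjusted p = 0.535). The exact permutation test of its CPM, two-sided, gave p = 0.486, where the smallest p that 4 against 4 libraries allow is 0.0286. Hey1, the HEY repressor of vascular and cardiac development (ENSMUSG00000040289, chromosome 3, 8663359 to 8667256, minus strand), was near the limit of detection. It had 15, 19, 18 and 25 counts in Ad-Cre and 20, 21, 19 and 32 counts in Ad-GFP. Those are 0.839, 0.799, 0.865 and 1.13 CPM in Ad-Cre, against 1.15, 1.16, 1.12 and 2.0 CPM in Ad-GFP. The highest Ad-Cre library exceeded the lowest Ad-GFP library by a small margin. The log2 fold change of Hey1 was -0.56 ± 0.26 (SE, n = 4 per group; adjusted p = 0.0887), with a 95% interval of 46.7% to 98.2% of Ad-GFP. Without Ad-GFP replicate 4 the log2 fold change of Hey1 was -0.33 (adjusted p = 0.375). With libraries thinned to the smallest total it was -0.77 (adjusted p = 0.0261). That was the only 1 of 16 alternatives in which Hey1 passed. It rests on a random draw of few counts that was not repeated.

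The rest of the pathway was read from 6 lists of 67 further genes, of which 53 had enough counts to be tested. Of these, 15 rose and 8 fell, 43.4% in all beside the 40.3% of all genes tested, with a median log2 fold change of 0.025. With upper-quartile scaling 11 rose and 12 fell, so the balance of direction depends on the scaling. Of 7 tested O-glycosylation genes 3 rose and 0 fell (42.9% called), and with upper-quartile scaling 2 rose and 0 fell. The 3 that rose in the main fit were Pofut1, Poglut3 and Poglut1. The O-fucosyltransferase gene Pofut1, which adds the sugar that fringe enzymes extend, was at 34.8 ± 1.1 CPM in Ad-Cre and 30.2 ± 1.1 CPM in Ad-GFP (SD, n = 4; adjusted p = 0.00134). The glucosyltransferase genes were at 118.6% of Ad-GFP for Poglut3 (adjusted p = 0.00223) and 106.3% for Poglut1 (adjusted p = 0.0399). The groups overlapped in CPM for Poglut1. Of 10 receptor cleavage genes 4 rose and 0 fell (40.0% called), and with upper-quartile scaling 2 rose and 1 fell. Adam10, encoding the main ligand-dependent sheddase of Notch, was at 187.2 ± 2.5 CPM in Ad-Cre and 168.8 ± 5.0 CPM in Ad-GFP (adjusted p = 5.384e-05), and the γ-secretase subunit gene Aph1c was at 117.7% of Ad-GFP (adjusted p = 0.00823).

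Of 12 tested genes of the nuclear complex and its co-repressors 5 rose and 0 fell, a share of 41.7% that lies at the background of 40.3%. With upper-quartile scaling 4 rose and 2 fell. Cir1, a co-repressor that binds RBPJ, had the largest rise, at 40.8 ± 1.5 CPM in Ad-Cre and 32.32 ± 0.86 CPM in Ad-GFP (adjusted p = 1.814e-06). The histone H3K4 demethylase gene Kdm5a was at 109.9% and the co-activator gene Maml2 at 119.7% of Ad-GFP. Rbpj itself, named after its values were seen, was at 106.4% of Ad-GFP (adjusted p = 0.0387), and its groups overlapped in CPM. Among 15 tested ubiquitin ligases and endocytic regulators 2 rose and 5 fell, 46.7% in all and so near the background of 40.3%. The E3 ligase genes Mib1, whose product drives ligand endocytosis, and Itch rose to 111.5% and 110.0% of Ad-GFP, and the Deltex gene Dtx4 fell to 78.0%, with 51.2 ± 1.3 CPM in Ad-Cre against 65.6 ± 4.0 CPM in Ad-GFP (SD, n = 4; adjusted p = 1.443e-07).

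Other ligand-like genes and targets were mostly low. Of 3 tested ligand-like and secreted modulators 2 fell, Egfl7 to 53.5% and Cntn1 to 69.7% of Ad-GFP, and 5 more were too low to test. That is 66.7% called beside 40.3% of all genes tested, on 3 genes only. Egfl7, a secreted factor of endothelial cells, was at 3.02, 3.41, 2.98 and 3.71 CPM in Ad-Cre and at 6.65, 6.03, 6.21 and 5.75 CPM in Ad-GFP. Of 11 further targets 6 were tested, 1 rose and 1 fell (33.3% called), and Hes2, Hes3 and Helt had 0 counts in every library. Nrarp, which encodes a feedback inhibitor that binds the Notch intracellular domain, fell to 67.2% of Ad-GFP, at 2.24, 2.65, 2.35 and 2.4 CPM in Ad-Cre and 2.87, 4.31, 3.49 and 3.75 CPM in Ad-GFP (adjusted p = 0.00594). Bhlhe40, a basic helix-loop-helix repressor with many inputs besides Notch, rose to 110.9% (adjusted p = 3.025e-06). Heyl, named after its values were seen, was at 84.9% of Ad-GFP and did not pass (adjusted p = 0.224). The KEGG Notch signaling pathway carried by the deposited table had 38 tested genes outside the 10, of which 10 rose and 6 fell, 42.1% in all and so near the 40.3% of all genes tested.

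**Figure D4:**
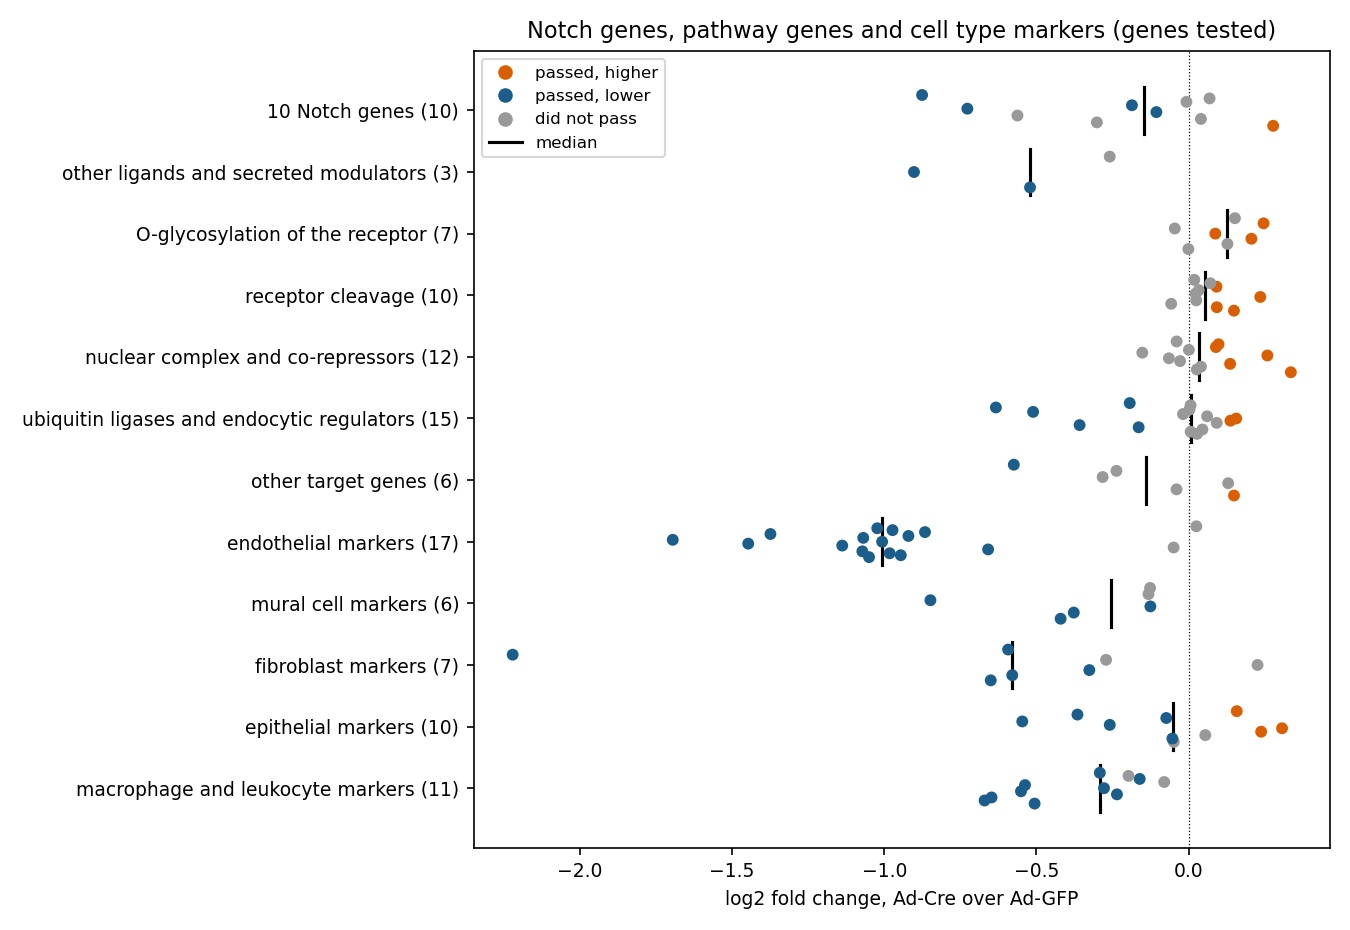
Log2 fold change, Ad-Cre over Ad-GFP, of every tested gene in each list, with the list's median as a black line and the number of tested genes in brackets. The endothelial markers have a median of -1.01, the 10 Notch genes of -0.15 and the receptor cleavage genes of 0.05.

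Markers of other cell types moved in the same libraries. Among 17 tested endothelial markers 15 fell, and the median over the list was -1.01 on the log2 scale. Over all genes tested 20.5% fell, which is the share to set beside this list and the mural list. The summed level of all 18 was 174.9 to 186.7 CPM in Ad-Cre libraries and 271.4 to 281.4 CPM in Ad-GFP libraries. None of the 18 was at 0. Cdh5, the VE-cadherin gene, was at 48.3% of Ad-GFP, and Flt4, the most abundant marker of the list, was at 96.7% and did not pass (adjusted p = 0.22). Beside these, Notch4 was at 54.5%, Egfl7 at 53.5%, Dll4 at 81.2%, Notch1 at 87.9% and Jag1 at 92.9% of Ad-GFP. Of 6 tested mural markers 4 fell, with sums of 216.3 to 226.1 CPM in Ad-Cre and 254.1 to 263.7 CPM in Ad-GFP and Higd1b at 0 in every library, and Mcam was at 91.7% and Des at 76.99%. Notch3, beside them, was at 104.9%. In bulk samples fewer cells of a type and less RNA per cell cannot be told apart. The part that these cell types have in the Notch1, Notch4, Jag1, Jag2 and Dll4 values was not tested.

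Of all genes tested, 19.8% rose and 20.5% fell. Fibroblast markers fell in 5 of 7 tested genes, with a median log2 fold change of -0.58. Their sums were 444.3 to 516.6 CPM in Ad-Cre and 705.0 to 751.1 CPM in Ad-GFP. Macrophage and leukocyte markers fell in 9 of 11, with sums of 240.7 to 252.9 CPM in Ad-Cre and 278.2 to 318.6 CPM in Ad-GFP. Lyz2 and Csf1r, their most abundant genes, were at 89.5% and 82.5% of Ad-GFP. Of 10 epithelial markers 3 rose and 5 fell (5096 to 5158 CPM in Ad-Cre and 5574 to 5792 CPM in Ad-GFP), with Krt8 at 77.6% and Cldn4 at 96.4% of Ad-GFP. Which cells the Jag1, Dll1, Notch2 and Hes1 transcripts came from was not determined.

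For each of the 10 genes, the gene with a mean of at least 5 CPM over both groups whose log2(CPM + 1) followed it most closely over the 8 libraries was found by Pearson's r, as a description in which a gene that differs between the groups is matched mainly on that difference. Dll1 lay nearest to Mapre1, which encodes a microtubule plus-end protein (r = 0.997; 217.8 ± 3.1 CPM in Ad-Cre and 186.8 ± 1.9 CPM in Ad-GFP). Notch4 lay nearest to Tgfbi, a TGF-β-induced matrix protein gene (r = 0.979; 19.1 ± 1.4 CPM in Ad-Cre and 31.8 ± 2.2 CPM in Ad-GFP). Jag2 was matched by Ssr2 (r = 0.993), a subunit of the translocon-associated complex, Jag1 by the CoREST family gene Rcor2 (r = 0.987; 3.85 CPM in Ad-Cre and 6.76 CPM in Ad-GFP) and Notch1 by the zinc finger gene Zfp143 (r = 0.974). For the genes that did not pass, the nearest were Gdpgp1 for Dll4 (r = 0.9745), Tmem64 for Notch3 (r = 0.964), Safb for Hes1 (r = 0.959), the tetraspanin gene Cd9 for Hey1 (r = 0.948) and Ncoa7 for Notch2 (r = 0.937). None of these 10 nearest genes is in the pathway or marker lists used here. Each match is the highest r in a search through all tested genes at that level, over only 8 libraries. Such a search can return a high r between unrelated genes. The r expected by chance was not computed, so the matches are not evidence of shared regulation.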

How the data were processed

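Per the file headers, the authors deposited 1 table with read counts per gene, FPKM values, the mean FPKM of each group, a log2 fold change, and p-values with their FDR from a test that is not named. The submitters' processing notes name GRCm38 and mm10, while an aligner, a counting tool, a strand setting and an annotation release are named in none of them. The deposited counts of 22322 genes went unchanged into edgeR 4.0.16 (R 4.3.3) (filterByExpr, TMM, quasi-likelihood F-test, two-sided, Benjamini-Hochberg adjustment, threshold 0.05). The SE of a log2 fold change is its size over the root of the F statistic, and 95% intervals use 25.2 degrees of freedom. CPM use TMM-scaled totals of the tested genes. Every pair of replicates scattered beyond counting noise (chi-square per degree of freedom 1.83 to 3.35).

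The 10 genes, the lists and the tests were chosen with earlier results of these data known. The genes named are the 10, the 3 called members of smallest p in each pathway list, the 2 most abundant of each marker list and the nearest gene to each of the 10; 1 gene that this rule names is not reported here. Alternatives were RLE and upper-quartile scaling, no filter, at least 5 CPM, DESeq2 1.42.0, limma-voom (limma 3.58.1), a replicate block, leaving out each library, thinning to 15879244 counts, and limma tests of FPKM with 1 or 0.1 added before the log2. The nearest gene was sought on log2(CPM + 1) in place of the log2 CPM first planned, since some genes had 0 counts. Promoter windows are RefSeq's on GRCm38.p6. Libraries were thinned in a random draw that was not repeated. Permutation tests used scipy 1.17.1. The fit was tested on simulated data in which all genes shared the same dispersion. It recovered 65.7% of 1.25-fold, 91% of 1.5-fold and 98.5% of 2-fold changes. Of its calls, 5.56% were false. The changed genes were 66 or 67 of 13337 at each fold, drawn at random over all levels. In the data 40.3% of genes passed, so these rates need not hold for the data or for low genes such as Hey1.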

Additional observations from a re-analysis of the deposited data

Results flagged for a closer look

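In 3 of 20 sets of 4 libraries (10 genes in each of the 2 groups), 1 library stood apart from the other 3 by a gap over 0.829 of the whole range, Dixon's 95% value for 4 samples, where chance flags about 1 set in 20. Hey1 was at 2.001 CPM in Ad-GFP replicate 4, against 1.12 to 1.16 CPM in the other Ad-GFP libraries. Dll1 was at 61.12 CPM in Ad-GFP replicate 2, against 59.4 to 59.46 CPM in the other Ad-GFP libraries, still below every Ad-Cre library. Hes1 was at 33.46 CPM in Ad-GFP replicate 2, against 37.27 to 37.71 CPM in the other Ad-GFP libraries.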

How the results depend on the processing

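Dll1 stayed higher and Jag1, Jag2 and Notch4 stayed lower, past the threshold, in every alternative that could test them (19 for Dll1 and Jag1, 16 for Jag2 and Notch4), and Hes1 stayed above 0 and unpassed in all 19 (log2 fold change 0.00021 to 0.0599). Notch1 kept its call in 18 of 19, and on log2(FPKM + 1) with no filter its log2 fold change was -0.17 (adjusted p = 0.0763). Notch2, never called, ran from -0.0362 to 0.0149 on leaving out each library and changed sign without Ad-Cre replicate 2 (0.0109), without Ad-Cre replicate 4 (0.0149) and without Ad-GFP replicate 4 (0.00407). The count of the 10 genes that fell was 2 with a filter of at least 5 CPM, which left 6 of them tested, and 2 by limma on both log2(FPKM + 1) and log2(FPKM + 0.1) with a mean FPKM of at least 1, which left 7. Leaving out each library gave 4816 to 5084 changed genes over all tested, 4 to 5 of the 10 that fell, 1 that rose and 19 to 21 changed among the other pathway genes. Limma on log2(FPKM + 1) and log2(FPKM + 0.1) gave 3530 and 3520 changed genes over all tested and 11 (5 higher and 6 lower) among the other pathway genes for each, and 14 (5 higher and 9 lower) without a filter; the cause was not tested. Whether same-numbered samples pair was not settled. Their deviations correlated at -0.0115 to 0.104, and 2 of 4 Ad-Cre samples correlated best with their own number. No reference value for unpaired samples was computed. The replicate block gave 5390 changed genes, 1 of the 10 higher and 4 lower, and 22 other pathway genes. Hey1 rests on 15 to 32 counts per library.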
